A study of Mus musculus with 6 samples.

Results

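Base excision repair genes were examined in whole mouse kidney after ischemia-reperfusion, with and without tacrolimus. The set holds 31 genes, chosen by name for their place in the pathway, of 56747 gene rows in the deposited table. All 31 were found, each in 1 row, and 30 had enough counts to be tested. The other, Neil3, was close to undetected.

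RNA-seq was made from kidneys of male wild-type C57BL/6J mice, 3 libraries per group. The mice of the saline group received oral 0.9% saline for 1 day, and those of the tacrolimus group were given tacrolimus, a calcineurin inhibitor used as an immunosuppressant, by mouth at 1 mg/kg/day for 1 day. All kidneys then had 30 min of ischemia and 24 h of reperfusion. No uninjured kidney was analysed here, so each difference is between injured kidneys. The study's text calls the ischemia partial and bilateral for the saline group and an occlusion of both renal arteries for the tacrolimus group, so treatment and surgery cannot be told apart. It also gives 6 animals per group. No label ties a library to an animal of its own, so the p-values cover the spread among the libraries, whose source is not stated. Libraries of the same group differed by more than counting error (chi-square per degree of freedom of at least 52.6). Whether that spread is the spread between single animals cannot be told. Zafirlukast, the drug of the series title, is in none of the labels.

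Base excision repair removes small base lesions, such as oxidised, deaminated or alkylated bases, of the kind that reactive oxygen leaves when blood returns to a clamped kidney. A DNA glycosylase cuts out the damaged base, an AP endonuclease nicks the strand at the empty site, and a polymerase fills the gap before a ligase seals it. Short gaps are filled by polymerase beta and closed by the Xrcc1 and Lig3 pair. Longer patches use polymerases delta and epsilon, the flap endonuclease Fen1 and Lig1, which also replicate DNA. PARP enzymes bind the nicked strand and mark it with poly(ADP-ribose), a polymer made from NAD.

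Library totals ran from 38443534 to 44476844 counts, so 1 CPM, a count scaled to a library of 1e6 counts, stood for at least 39.4 counts after TMM scaling. All 6 proximal tubule markers on the list (Slc34a1, Lrp2, Slc5a2, Slc5a12, Cubn and Kap) were detected in every library, as the kidney label requires. The injured tubule markers Havcr1, Lcn2 and Krt20 were lower with tacrolimus in all 3 cases. They summed to 358, 2332 and 4312 CPM with saline and to 65.4, 93.1 and 199 CPM with tacrolimus, where 3 values follow the order of replicates 1 to 3 here and below. Saline replicate 1 thus stood nearer to the tacrolimus libraries than to the other saline libraries, and results that rest on it are given with and without it. The proximal tubule markers summed to 5516 to 9274 CPM with saline and 10495 to 12301 CPM with tacrolimus. Kap, the largest part in every library, had 4444, 3926 and 8550 CPM with saline and 7613, 5085 and 5910 CPM with tacrolimus. Marker by marker, the groups overlapped for Kap, Slc34a1 and Slc5a12. They were apart, with tacrolimus higher, for Lrp2, Slc5a2 and Cubn. The 3 neutrophil markers summed to 6.35 to 24.2 CPM with saline and 2.44 to 3.88 CPM with tacrolimus, and none was at 0 in any library. The part of these cell types in the repair gene values was not tested. In whole kidney, fewer cells of a type and less RNA per cell cannot be told apart.

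Most base excision repair transcripts were lower in the tacrolimus kidneys, by small amounts, and none passed the test. Of the 30 tested genes 26 had a lower fitted value with tacrolimus and 4 a higher one (Mbd4, Lig3, Poll and Parp1), where 50.7% of all tested genes were lower. The median log2 fold change of the 30 was -0.32, against -0.01 over all 17557 tested genes. By edgeR's quasi-likelihood test 0 of 30 passed an adjusted p of 0.05, a threshold that 0.0114% of all genes passed. At an unadjusted p under 0.05 there were 5 lower (Pold4, Apex1, Parp2, Neil2 and Lig1) and 0 higher, where 7.72% of all genes were lower and 4.94% higher at that level. DESeq2, an alternative test, called 2 of the 30 lower, Pold4 and Apex1, where it called 1.33% of all genes lower and 0.632% higher. Limma on log2(FPKM + 0.1) called 0 of the 30 and 0.00570% of all genes. The adjusted p of the 30 genes with all 6 libraries ran upward from 0.392 (edgeR).

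The 3 values of each group stood apart, with tacrolimus lower, for 8 of the 30 genes, where 11.0% of all tested genes did so. These were Neil2, Tdg, Apex1, Parp2, Pold3, Pold4, Fen1 and Lig1. With tacrolimus higher they stood apart for 0 of 30, where 10.7% of all genes did. For both directions together the share was 26.7% of the repair genes, near the 21.8% of all genes. Without saline replicate 1, the groups stood apart for 11 of the 30 genes with tacrolimus lower and for 1, Mbd4, with tacrolimus higher. In that comparison 25.5% of all genes stood apart with tacrolimus lower and 26.3% with tacrolimus higher, so for both directions together the share was 40.0% of the repair genes and 51.8% of all genes. The highest of the 6 libraries was a saline library for 28 of 30 genes (93.3%), against 57.5% of all tested genes. The lowest was a tacrolimus library for 20 of 30 (66.7%), against 41.8% of all. The genes vary together within a library, so they are not independent of each other.

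**Figure D1:**
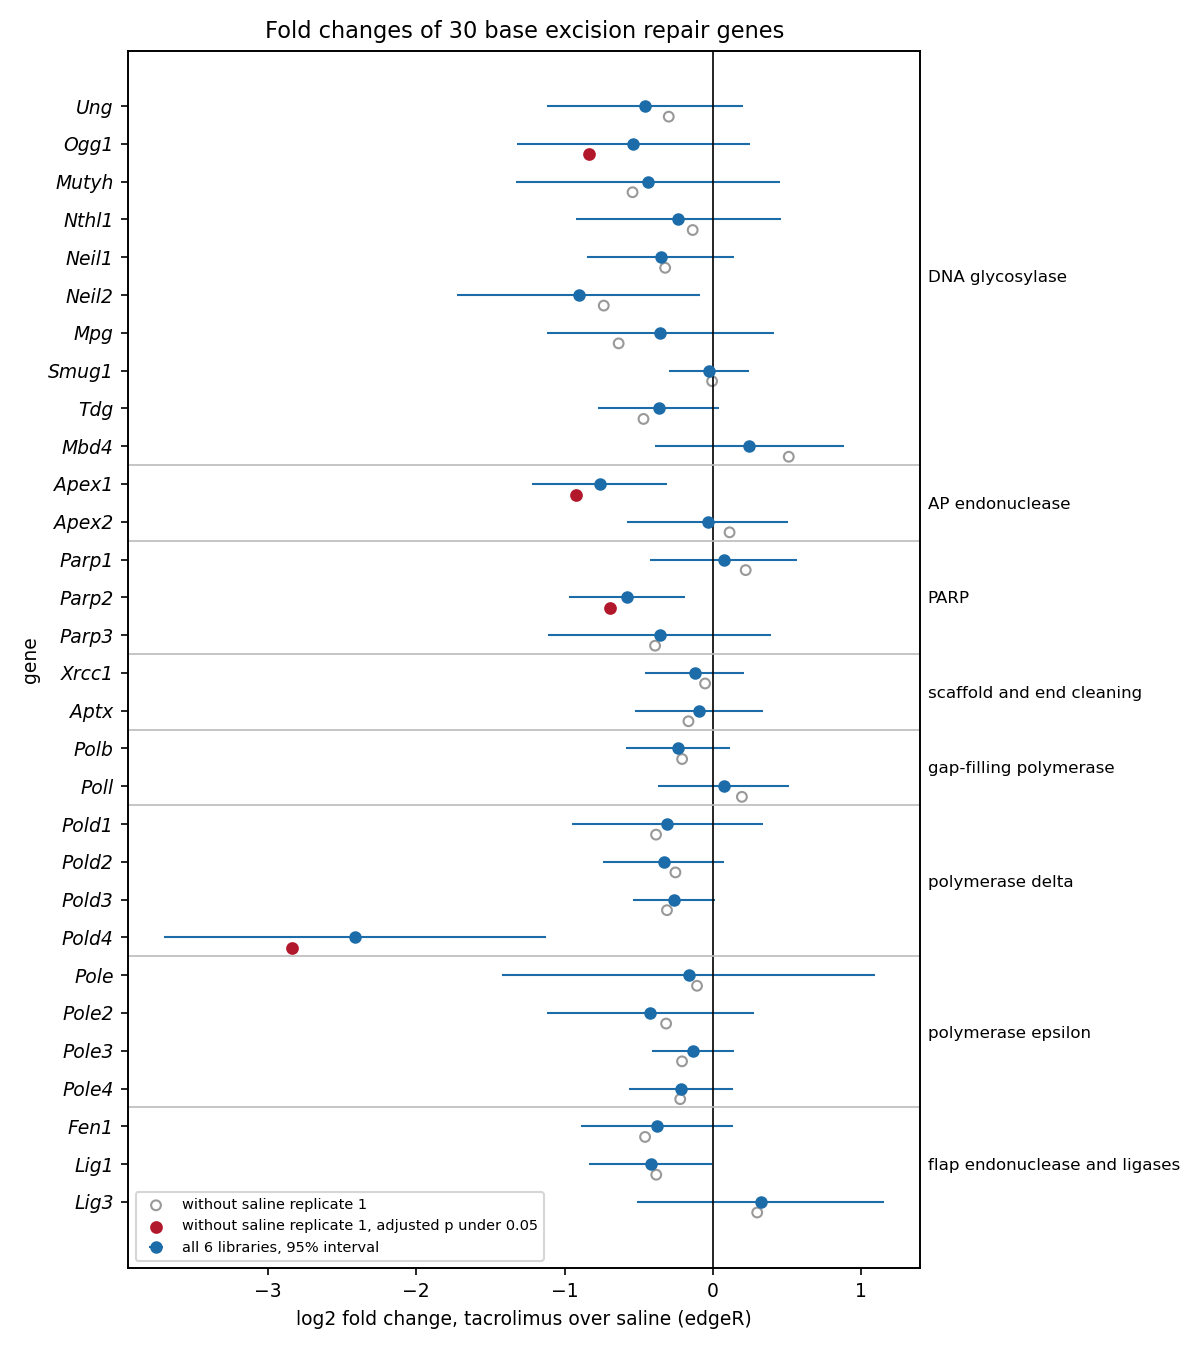
Log2 fold change of tacrolimus over saline (horizontal axis) for the 30 tested genes, grouped by role. Filled blue points with lines are the edgeR values and 95% intervals from all 6 libraries, and points below them come from a fit without saline replicate 1, red where the adjusted p was under 0.05. Of the blue points 26 lie left of 0, and Pold4 lies farthest, at -2.41.

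Leaving out saline replicate 1 called 4 of the 30 genes, all lower with tacrolimus: Pold4, Apex1, Ogg1 and Parp2. In that fit 6.16% of all 18081 tested genes were called lower and 7.85% higher. Of the 30 genes 25 then had a lower fitted value, against 50.1% of all genes. The log2 fold change without that library was -2.83 ± 0.18 for Pold4 (SE; adjusted p = 0.00355, edgeR), -0.93 ± 0.13 for Apex1 (adjusted p = 0.0123), -0.84 ± 0.15 for Ogg1 (adjusted p = 0.0231) and -0.69 ± 0.14 for Parp2 (adjusted p = 0.0310). Leaving out saline replicate 1, which has the lowest injury markers of its group, also raised the calls over all genes from 2 to 2534. That library was set apart for its values in these same data. The adjusted p-values without it are therefore descriptive and do not stand as a test.

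Levels between genes were compared as FPKM, the deposited count scaled by gene length and library size. Over the 6 libraries the mean was highest for Pold4 (37.7 FPKM), followed by the polymerase epsilon accessory genes Pole3 (20.2) and Pole4 (12.4), then Parp1 (9.95) and Apex1 (9.21). The lowest were Neil3 (0.017), Neil2 (0.228), Pole (0.264) and Mutyh (0.351). The glycosylases lay low as a class, from 0.017 to 4.72 FPKM, with Ogg1 the highest of the 11. Pole, the catalytic subunit of polymerase epsilon, thus had far fewer transcripts per length than its small partners Pole3 and Pole4, which also serve in chromatin complexes. Xrcc1 (2.54 FPKM) and its ligase partner Lig3 (3.84 FPKM) stood at similar levels.

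**Figure D2:**
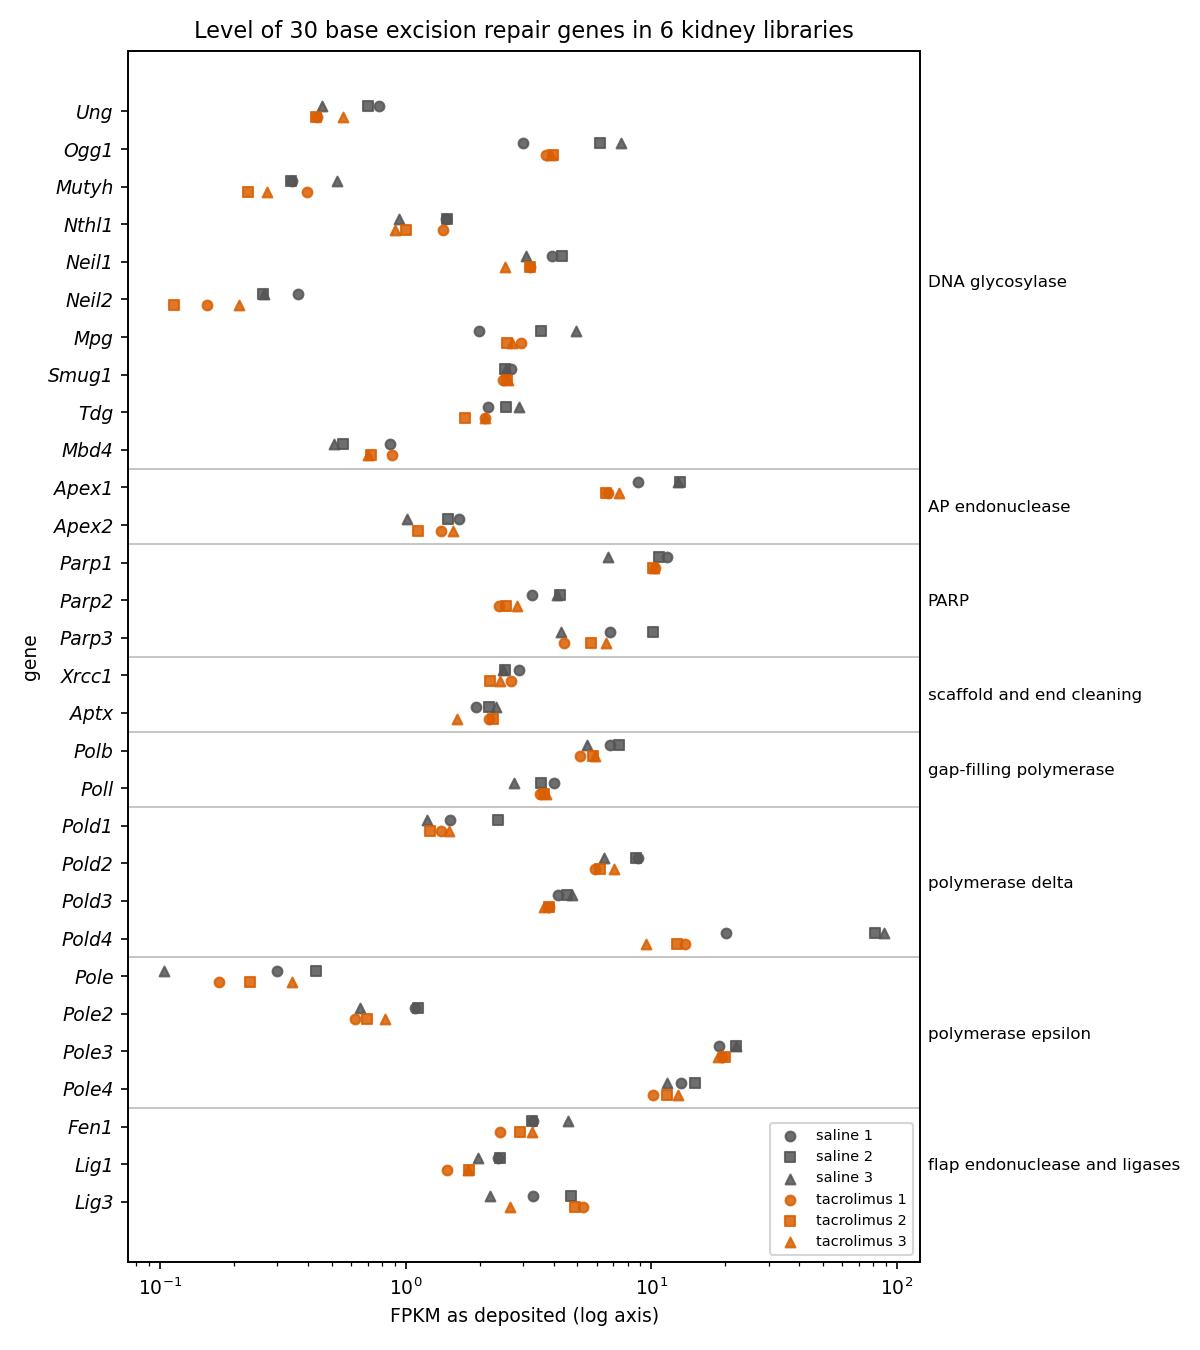
FPKM as deposited, on a log axis, of the 30 tested genes in each of the 6 libraries, grouped by role (grey, saline; orange, tacrolimus; marker shape, replicate). Pold4 spans the widest range, from 9.52 FPKM in tacrolimus replicate 3 to 88.8 FPKM in saline replicate 3, while the Smug1 points lie within 2.49 to 2.67 FPKM.

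The start regions of the 3 genes with the smallest p, Pold4, Apex1 and Parp2, are shown beside that of Parp1, whose level differed little. Each is the 250 bases before the RefSeq gene start on GRCm38.p6, an older build than the GRCm39 of the deposited table, on the plus strand and written in the direction of transcription. The regions are chr19:4231643-4231892, chr14:50924699-50924948, chr14:50807666-50807915 and chr1:180568641-180568890, in the order below. Capitals mark the letters of a CCAAT box (CCAAT) or a GC box (GGGCGG) on either strand, which appear as ATTGG or CCGCCC where they lie on the other strand.
Pold4: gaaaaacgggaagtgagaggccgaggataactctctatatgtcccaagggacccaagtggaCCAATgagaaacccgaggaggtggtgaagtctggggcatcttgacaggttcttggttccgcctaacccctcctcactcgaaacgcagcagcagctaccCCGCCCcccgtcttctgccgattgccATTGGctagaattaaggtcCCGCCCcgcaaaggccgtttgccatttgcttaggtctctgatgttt
Apex1: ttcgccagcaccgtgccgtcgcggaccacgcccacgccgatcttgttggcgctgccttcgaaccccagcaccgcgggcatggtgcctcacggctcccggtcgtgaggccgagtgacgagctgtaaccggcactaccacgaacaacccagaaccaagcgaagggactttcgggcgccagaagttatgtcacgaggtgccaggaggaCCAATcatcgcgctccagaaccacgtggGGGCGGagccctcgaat
Parp2: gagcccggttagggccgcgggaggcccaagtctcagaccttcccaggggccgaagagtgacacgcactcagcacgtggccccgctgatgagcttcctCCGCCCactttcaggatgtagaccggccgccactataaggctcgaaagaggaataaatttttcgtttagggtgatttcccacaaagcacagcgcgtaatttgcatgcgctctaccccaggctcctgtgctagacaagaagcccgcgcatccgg
Parp1: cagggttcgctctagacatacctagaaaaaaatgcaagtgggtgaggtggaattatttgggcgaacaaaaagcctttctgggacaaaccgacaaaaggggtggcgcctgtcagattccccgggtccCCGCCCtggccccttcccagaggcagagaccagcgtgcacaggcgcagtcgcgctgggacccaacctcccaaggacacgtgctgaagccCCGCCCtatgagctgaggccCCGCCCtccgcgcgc
Pold4 and Apex1 hold both kinds of letters, and Parp2 and Parp1 the GC box only. No match to the E2F motifs TTTCCCGC and TTTGGCGC, both strands searched, lies in these 4 windows. Such windows were found for 26 of the 31 genes, some with several starts, and a gene counted if any of its windows matched. The shares over all genes count single windows, so gene shares and window shares are not like for like. A GC box was present for 17 of the 26 genes (65.4%) and in 32.7% of the 32851 RefSeq windows of all genes, noncoding and predicted ones included. A CCAAT box was present for 13 of 26 (50.0%) and in 33.8% of all windows. An E2F match was present for 1 gene, Pole4, and in 1.3% of all windows. These are matches of letters, not measured binding sites.

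DNA glycosylases start the pathway, and 9 of the 10 tested were lower with tacrolimus by fitted value (median log2 fold change -0.36, from -0.90 to 0.25). Of these 10, 0 passed the test with all 6 libraries. Ogg1, which removes oxidised guanine, had 6.54, 13.5 and 16.7 CPM with saline and 8.16, 8.66 and 8.50 CPM with tacrolimus. The tacrolimus libraries were close together, saline replicate 1 was the lowest of all 6 and saline replicates 2 and 3 were the highest. With all libraries its log2 fold change was -0.54 ± 0.33 (SE; adjusted p = 0.448, edgeR), so the call given above arises only without saline replicate 1. Over the alternatives its log2 fold change ran from -0.84 to -0.25 (adjusted p from 0.0231 to 0.771), and it was -0.25 without saline replicate 3. The last 945 bases of the Ogg1 model overlap Camk1, a kinase gene on the other strand with a mean of 6.23 FPKM, and the strand setting of the counting is not given in the sources used here.

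Neil2, which removes oxidised bases and favours unpaired stretches of DNA, was scarce in every library. It had 75, 52 and 56 counts (1.82, 1.32 and 1.34 CPM) with saline and 33, 24 and 44 counts (0.776, 0.569 and 1.04 CPM) with tacrolimus. All 3 saline values were above all 3 tacrolimus values, with log2 fold change -0.90 ± 0.34 (SE; adjusted p = 0.393, edgeR). Neil3, a relative found mainly in dividing cells, had 3, 0 and 0 counts with saline and 3, 0 and 18 with tacrolimus. A count of 0 allows up to 3 counts, or 0.0762 CPM in the smallest library, so only tacrolimus replicate 3 (0.426 CPM) rose above that limit. This and all such limits cover counting error only.

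Ung, the main uracil glycosylase, stood at 4.26, 3.86 and 2.51 CPM with saline and 2.37, 2.35 and 3.03 CPM with tacrolimus. Saline replicate 3 lay among the tacrolimus libraries, so the groups overlapped, and the log2 fold change was -0.45 ± 0.28 (SE; adjusted p = 0.445, edgeR). Tdg, which removes thymine and uracil opposite guanine and acts in DNA demethylation, had 11.6, 13.7 and 15.6 CPM with saline and 11.2, 9.30 and 11.2 CPM with tacrolimus. The groups were apart, but saline replicate 1 exceeded the highest tacrolimus library by a small margin (11.6 against 11.2 CPM). Mbd4, a glycosylase for mismatches at methylated CpG sites, was the exception in direction at 3.40 ± 0.984 CPM with saline and 4.03 ± 0.523 CPM with tacrolimus (SD, n = 3 each), with overlapping groups.

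Smug1, a further uracil glycosylase, was the steadiest of the set, at 16.0 ± 0.365 CPM with saline and 15.7 ± 0.379 CPM with tacrolimus (SD, n = 3 each). Its log2 fold change was -0.03, with a 95% interval of -0.30 to 0.25. Mpg, which removes alkylated purines, resembled Ogg1 in its order of libraries, with 7.41, 13.4 and 18.6 CPM with saline and 9.65 to 11.1 CPM with tacrolimus. Saline replicate 1 was again the lowest of all 6 libraries, and only Ogg1 and Mpg of the 30 tested genes had their lowest value there. The whole Mpg model lies within Nprl3, a gene on the other strand with 1.58 FPKM. Neil1, Nthl1 and Mutyh, glycosylases for oxidised or mispaired bases, had overlapping groups and log2 fold changes of -0.35, -0.23 and -0.44.

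Apex1 encodes the main AP endonuclease, which makes the nick that all later steps use. It had 12.5, 18.6 and 18.4 CPM with saline and 9.48, 9.23 and 10.5 CPM with tacrolimus. Every saline library was above every tacrolimus library, and saline replicate 1 lay between. The log2 fold change was -0.76 ± 0.19 (SE; 1.70-fold higher with saline; adjusted p = 0.392, edgeR), with a 95% interval of -1.22 to -0.31 for this gene alone. DESeq2 gave an adjusted p of 0.0454. Under all alternatives tried the log2 fold change of Apex1 stayed between -0.93 and -0.66, with an adjusted p from 0.0123 to 0.682. Apex1 (ENSMUSG00000035960) spans 51162425 to 51164596 on chromosome 14 of GRCm39. The neighbouring Pip4p1 model, on the other strand, covers 1072 bases of it and stood at 21.8 CPM with saline and 19.1 CPM with tacrolimus.

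Apex2, a relative with weaker AP endonuclease activity, did not share this pattern. It had 14.4, 13.0 and 8.91 CPM with saline and 12.2, 9.80 and 13.5 CPM with tacrolimus, and the groups overlapped (log2 fold change -0.04, 95% interval -0.58 to 0.51). The Apex2 model contains the whole of Alas2, an erythroid heme synthesis gene on the other strand, and how the counting shared reads between them is not known. Whether Apex1 and Apex2 differ from each other in their change was not tested.

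Parp1, the most abundant of the 3 PARP genes and the main sensor of strand breaks, stood at 61.3, 57.2 and 35.7 CPM with saline and 54.5, 53.6 and 53.8 CPM with tacrolimus. Saline replicate 3 was far below all the others, and the tacrolimus libraries lay close together. Its log2 fold change was 0.07 ± 0.21 (SE; adjusted p = 0.874, edgeR), with a 95% interval of -0.42 to 0.56, and the sign turned to -0.13 without saline replicate 3. Parp2, which acts beside Parp1 at breaks, had 11.8, 15.4 and 15.0 CPM with saline and 8.72, 9.27 and 10.3 CPM with tacrolimus. Its groups did not overlap, and saline replicate 1 was the lowest saline library. The log2 fold change of Parp2 was -0.58 ± 0.16 (SE; 1.50-fold higher with saline; adjusted p = 0.392, edgeR), and over the alternatives it ran from -0.69 to -0.43 (adjusted p from 0.0310 to 0.682).

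Parp3, which attaches mono-ADP-ribose at breaks, varied more within the saline group, with 25.0, 37.6 and 16.1 CPM, than between groups (16.3, 21.0 and 24.0 CPM with tacrolimus). Parp2 (ENSMUSG00000036023) lies at 51045298 to 51058758 on chromosome 14, its end 103667 bases before the start of Apex1. Their values ranked the libraries alike in that saline replicates 2 and 3 were highest and saline replicate 1 came next. The same held for Tdg, Pold3 and Pold4 on other chromosomes, and for 8.04% of all genes.

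**Figure D3:**
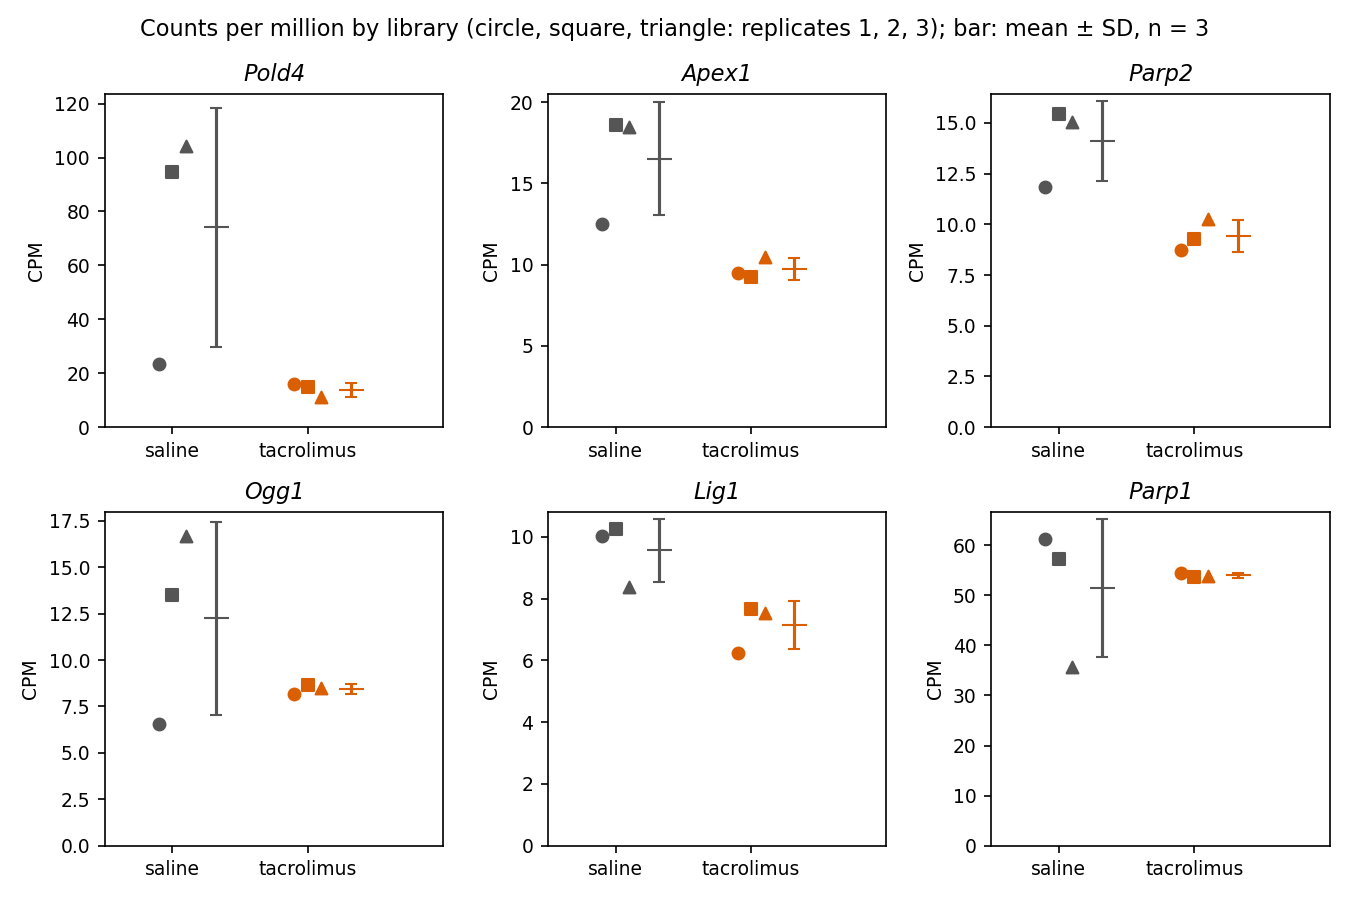
CPM on a linear axis from 0 for Pold4, Apex1, Parp2, Ogg1, Lig1 and Parp1, with 1 point per library and mean ± SD (n = 3) beside each group. For Pold4, Apex1 and Parp2 saline replicate 1 (circle) lies between the tacrolimus libraries and the other saline libraries, for Ogg1 it is the lowest of all, and for Parp1 saline replicate 3 (triangle) is the lowest at 35.7 CPM.

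The scaffold and the first gap filler differed little. Xrcc1, the scaffold that holds polymerase beta and Lig3 at the nick, had 16.8, 14.9 and 14.6 CPM with saline and 15.6, 12.8 and 14.1 CPM with tacrolimus. The groups overlapped, and the 95% interval of the log2 fold change was -0.46 to 0.21. Aptx, which removes adenylate left by failed ligation, stood at 12.7 ± 1.25 CPM with saline and 11.9 ± 2.08 CPM with tacrolimus (SD, n = 3 each).

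Polb, the polymerase of short patches, had 26.8, 29.2 and 21.8 CPM with saline and 20.2, 22.8 and 23.1 CPM with tacrolimus, with log2 fold change -0.24 ± 0.15 (SE; adjusted p = 0.451, edgeR) with overlapping groups. Poll, a related polymerase that can stand in for Polb, was at 8.01 ± 1.45 and 8.42 ± 0.234 CPM (SD, n = 3 each). These intervals leave room for changes of the size seen for Parp2 in Polb (95% interval -0.58 to 0.11), so a missed threshold here does not show that the levels were alike.

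Pold4, the smallest subunit of polymerase delta and one known in human cells to be degraded as a protein after DNA damage, showed the largest difference of the 30 genes. It had 23.4, 94.8 and 104 CPM with saline and 16.0, 14.8 and 11.0 CPM with tacrolimus. The groups did not overlap, yet saline replicate 1 stood much nearer to the tacrolimus libraries than to saline replicates 2 and 3. The mean was 74.2 ± 44.2 CPM with saline and 13.9 ± 2.58 CPM with tacrolimus (SD, n = 3 each), with log2 fold change -2.41 ± 0.54 (SE; 5.32-fold higher with saline; adjusted p = 0.392, edgeR). DESeq2 called it (adjusted p = 0.000812), and the log2 fold change stayed between -2.83 and -2.06 under all alternatives tried, with an adjusted p from 0.000812 to 0.682.

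The injury markers were high in the saline libraries in which Pold4 was high. Krt20, a keratin of injured tubule cells, had 13.4, 216 and 631 CPM with saline and 3.01, 4.03 and 7.96 CPM with tacrolimus. Cdkn1a, the cell cycle inhibitor p21 and a p53 target, had 20.8, 69.8 and 241 CPM with saline and 14.9, 12.7 and 12.3 CPM with tacrolimus. In both genes, as in Pold4, saline replicate 1 was above all tacrolimus libraries and far below saline replicates 2 and 3. Within the tacrolimus group Cdkn1a and Pold4 both fell from replicate 1 to replicate 3. Krt20 did not share that order, since Krt20 was highest and Pold4 lowest in tacrolimus replicate 3. Havcr1, a receptor that injured tubule cells carry, had 268, 1598 and 1081 CPM with saline and 15.0, 57.7 and 118 CPM with tacrolimus, and it too was highest of its group in tacrolimus replicate 3. The part of tubule injury in the Pold4 difference was not tested. Pold4 (ENSMUSG00000024854) spans 4281953 to 4283688 on chromosome 19, and the same-strand model Gm45928, with a mean of 0.073 FPKM, overlaps 1399 bases of it.

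The other polymerase delta genes showed far smaller differences. Pold3, an accessory subunit, had 19.2, 20.9 and 22.1 CPM with saline and 17.7, 17.5 and 16.8 CPM with tacrolimus, apart in all 6 libraries but with log2 fold change only -0.26 ± 0.12 (SE; adjusted p = 0.401, edgeR). Pold2, the second subunit, was at 15.2 ± 2.48 and 12.1 ± 1.10 CPM, and Pold1, the catalytic subunit, at 8.30 ± 2.89 and 6.70 ± 0.601 CPM (saline and tacrolimus, SD, n = 3 each), both with overlapping groups. In FPKM, Pold4 exceeded the catalytic Pold1 in every library, at 20.1, 81.2 and 88.8 against 1.52, 2.37 and 1.22 with saline and at 13.7, 12.7 and 9.52 against 1.39, 1.25 and 1.50 with tacrolimus. The excess was thus present in both groups and widest in saline replicates 2 and 3.

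All 4 polymerase epsilon genes had lower fitted values with tacrolimus (median log2 fold change -0.19), and all 4 had overlapping groups. Pole3, the most abundant, had 38.5, 45.4 and 45.7 CPM with saline and 39.4, 40.6 and 37.9 CPM with tacrolimus. Pole4 was at 33.5 ± 4.25 and 28.8 ± 3.28 CPM and the accessory subunit Pole2 at 2.75 ± 0.746 and 2.05 ± 0.295 CPM (SD, n = 3 each). Pole had 138, 190 and 49 counts with saline and 82, 109 and 161 with tacrolimus, so the lowest and the highest library were both saline and no direction can be read from it.

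Of the flap endonuclease and the ligases, Lig1 was lower in every tacrolimus library than in any saline library, Fen1 was so by a margin that depended on the scaling, and Lig3 was not. Lig1, the ligase of long patches and of replication, had 10.0, 10.3 and 8.38 CPM with saline and 6.23, 7.66 and 7.53 CPM with tacrolimus, with log2 fold change -0.42 ± 0.17 (SE; adjusted p = 0.393, edgeR). Fen1, which trims the displaced flap, had 7.94, 7.93 and 11.2 CPM with saline and 5.88, 7.04 and 7.88 CPM with tacrolimus, so the lowest saline value (7.93) and the highest tacrolimus value (7.88) nearly met. With RLE or DESeq2 size factors, without the filter on low counts or in FPKM the Fen1 groups overlapped, and 7 genes in place of 8 stood apart.

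Lig3, the ligase of short patches and of mitochondrial DNA, had 24.0, 34.5 and 16.2 CPM with saline and 38.4, 35.6 and 19.3 CPM with tacrolimus. Both groups spread widely and overlapped, and the log2 fold change was 0.32 ± 0.35 (SE; adjusted p = 0.646, edgeR). The Rffl model on the other strand covers 1826 bases of Lig3. In all, 7 of the 30 genes are overlapped by a model of at least 1 FPKM, and of the other 23 genes 20 had a lower fitted value, with a median log2 fold change of -0.26.

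**Figure D4:**
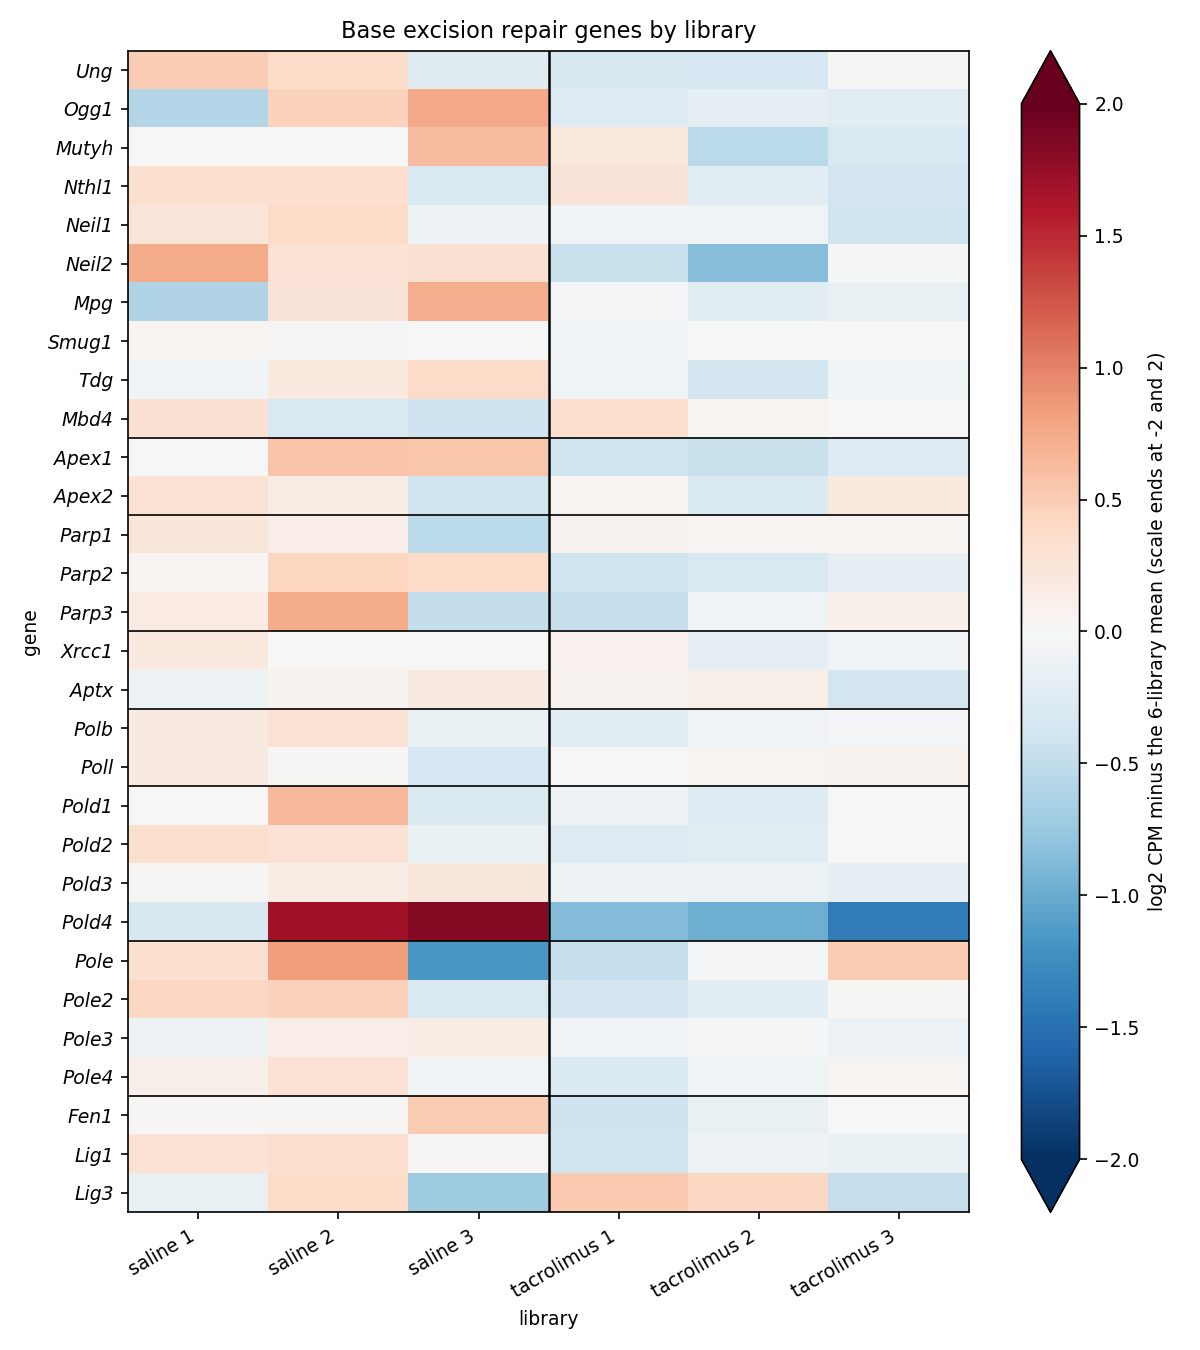
Log2 CPM of each of the 30 tested genes minus its mean over the 6 libraries (color, red higher and blue lower, ends at -2 and 2), with libraries in columns and genes in rows by role. The median over the genes was 0.13, 0.29 and -0.04 with saline and -0.10, -0.16 and -0.06 with tacrolimus, by replicate, and saline replicate 3 holds both red rows such as Pold4 and blue rows such as Pole.

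The saline libraries did not vary as 1 block. Saline replicate 3 was the lowest of all 6 libraries for 8 of the 30 genes (Mbd4, Apex2, Parp1, Parp3, Poll, Pold1, Pole and Lig3), close to the 29.4% of all genes for which it was lowest. Saline replicate 1 lay above all tacrolimus libraries and below both other saline libraries for 5 genes (Tdg, Apex1, Parp2, Pold3 and Pold4), or 16.7%, against 8.04% of all genes. It was the saline library nearest to the tacrolimus mean for 12 of 30 genes (40.0%), against 61.9% of all genes. The range within the saline group was wider than that within the tacrolimus group for 23 of 30 genes (76.7%), near the 75.9% of all genes. The summed level of the 31 genes was 441, 572 and 493 CPM with saline and 393, 394 and 388 CPM with tacrolimus. Without Pold4 the sums were 418, 477 and 388 CPM and 377, 380 and 377 CPM, so the groups still did not overlap but saline replicate 3 came close to the tacrolimus libraries.

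Genes that work beside these factors were set beside them, and none passed the test. Of 19 partner genes, which load or clamp polymerases, process ends or remove poly(ADP-ribose), 14 had a lower fitted value with tacrolimus (median log2 fold change -0.16), 0 passed the edgeR test and 3 had an unadjusted p under 0.05, all lower, where 50.7% of all genes had a lower fitted value and 7.72% were lower at that p. Without saline replicate 1, 13 of 19 had a lower fitted value, against 50.1% of all genes. Pcna, the sliding clamp of polymerase delta, had 47.7, 62.6 and 69.2 CPM with saline and 40.7, 41.6 and 43.4 CPM with tacrolimus. Its groups did not overlap, and its log2 fold change was -0.51 ± 0.16 (SE; adjusted p = 0.392, edgeR). Rfc3, a subunit of the clamp loader, was at 8.37 ± 2.39 and 5.16 ± 0.977 CPM. Dna2, a flap nuclease, was at 9.90 ± 1.75 and 7.10 ± 0.902 CPM. Nudt1, which clears oxidised guanine nucleotides before they enter DNA, was at 10.5 ± 2.53 and 6.86 ± 1.69 CPM (saline and tacrolimus, SD, n = 3 each).

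Several of the polymerase, ligase and clamp genes also serve DNA replication, so 16 genes of dividing cells were set beside them, Pcna being on both lists. Of the 16, 13 had a lower fitted value with tacrolimus (median log2 fold change -0.42), 0 passed the edgeR test and 4 had an unadjusted p under 0.05, all lower, where 50.7% of all genes had a lower fitted value and 7.72% were lower at that p. The 4 were Pcna, the helicase subunits Mcm7 and Mcm4, and Ccne1, a cyclin of the entry into DNA replication. Mcm7 had 21.2, 24.7 and 16.8 CPM with saline and 13.6, 14.4 and 12.9 CPM with tacrolimus. Mcm4 had 18.9, 26.4 and 16.3 CPM with saline and 9.88, 11.6 and 15.1 CPM with tacrolimus. Ccne1, at low counts, had 1.84, 2.46 and 1.29 CPM with saline and 0.329, 0.308 and 1.21 CPM with tacrolimus. The groups stood apart, with tacrolimus lower, for these 4 of the 16 genes (25%), where 11.0% of all genes did so. With tacrolimus higher they stood apart for 0 of 16, where 10.7% of all genes did. These 4 genes were named for their small p, so their separation adds no support. Without saline replicate 1, 10 of the 16 had a lower fitted value, against 50.1% of all genes. Their sum was 251, 262 and 200 CPM with saline and 157, 193 and 206 CPM with tacrolimus, with overlapping groups and no gene at 0. Mki67, a marker of cycling cells, had 6.47, 1.02 and 0.812 CPM with saline and 1.58, 3.80 and 2.79 CPM with tacrolimus, and Top2a, a topoisomerase of mitosis, had 4.65, 1.50 and 0.693 CPM and 1.39, 3.06 and 3.65 CPM. Both were highest in saline replicate 1 and lowest in saline replicate 3. Mcm5, a subunit of the replicative helicase, had 14.5, 12.7 and 5.28 CPM with saline and 5.53, 9.63 and 11.6 CPM with tacrolimus. The part of dividing cells in the repair gene values was not tested.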

How the data were processed

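The deposited table holds raw read counts and FPKM values per gene and library, per the file headers. The authors' build was GRCm39, per the submitters' processing notes, and how reads were aligned and counted, with which annotation and strand setting, is not given in the sources used here. As deposited, the counts are whole numbers and not normalized. The deposited FPKM values imply gene lengths 1.02 to 2.88 times those of the table's own length column (1st to 99th percentile, as scaled by the count total in saline replicate 1), so levels between genes rest on lengths not listed. The table has 1 row that is not analysed here.

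Groups came from the sample titles. Counts were fitted with edgeR 4.0.16 (R 4.3.3) after filterByExpr (minimum count 10, minimum total 15), TMM scaling and robust glmQLFit, and two-sided p-values were adjusted by Benjamini-Hochberg over all 17557 genes kept. SEs derive from the F statistic of each fold change, and 95% intervals from that SE. CPM values scale each count to 1e6 counts of TMM-adjusted library size. DESeq2 1.42.0 and limma 3.58.1 served as alternatives. Replicates differed beyond sampling noise (chi-square per degree of freedom of at least 52.6). The 31 genes and all lists were chosen with earlier results of these data known. All 31 are described. Values per library were given for up to 6 per direction with the smallest p, the most abundant of each role and 10 fixed genes, and others by mean ± SD, range or fold change. Mbd4 and Poll fall under that rule but were given by mean ± SD. Some members were given per library beyond that rule (Tdg, Mpg, Apex2, Parp3, Pold1 and Pole), as were Mcm7, Mcm4 and Ccne1, chosen after their values were seen. Promoter windows are RefSeq's on GRCm38.p6, with 26 of 31 genes matched by symbol.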

Additional observations from a re-analysis of the deposited data

How the results depend on the processing

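With 3 libraries per group, single-gene calls depended on the tool and on saline replicate 1. Leaving out each library in turn gave 0 to 2534 genes called among all genes, 0 to 4 repair genes called and 8 to 18 repair genes with no overlap between groups. The 2534 and the 4 came without saline replicate 1, where 12 of 30 repair genes (40.0%) and 51.8% of all genes stood apart in either direction. The 18 came without saline replicate 3, all with tacrolimus lower, where 15.0% of all genes stood apart with tacrolimus lower. The number of the 30 genes with a lower fitted value, an analysis chosen after seeing the data, was 23 to 28 over these fits, and the median log2 fold change ran from -0.36 to -0.20. DESeq2 called 344 genes and 2 repair genes, and without independent filtering 337 genes and 2 repair genes. Limma on FPKM values called 1 gene with either pseudocount, 0.1 or 1, and the larger pseudocount moved the median to -0.17, which shrinks the change of low genes by construction. RLE factors, library totals alone, no filter and no robust moderation each called 2 genes and 0 repair genes, as the main setting did. The direction turned in some of the fits without a library for 6 genes: Apex2 (-0.21 to 0.11), Parp1 (-0.13 to 0.22), Aptx (-0.18 to 0.035), Poll (-0.063 to 0.19), Pold1 (-0.49 to 0.0055, against -0.31 with all libraries, the turn coming without saline replicate 2) and Pole (-0.56 to 0.30).

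With the replicate number as a block 1 gene passed in place of 2, and 0 repair genes. Libraries of the same number did not deviate together (r across genes of -0.023, -0.0093 and -0.047), and no library correlated best with its own number, so the numbers were not taken to pair the samples.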
